A study of Mus musculus with 10 samples.

Results

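The genes described here encode the enzymes and regulators with which a cell makes sterols and fatty acids. They were chosen as 32 listed gene symbols, read through each probe set (a group of probes for one transcript) that the platform annotation gives to that symbol alone. For 31 of the 32 the annotation held a probe set, and Acat2 was named by none. The 31 genes had 75 probe sets, and 72 of them were kept because their signal was above 369 in at least 3 of the 10 arrays, which left all 31 genes represented among 14236 genes in all. The 3 probe sets that were not kept were a dim one each of Fdps, Scap and Acly, which exceeded that signal on 1, 2 and 0 arrays. Just inside the limit, with 3 arrays each, were a dim Acly probe set and a dim Scd1 probe set. Each gene stands in counts of genes by its kept probe set with the highest mean, called its main probe set, and other kept ones are given where they passed or differed from it.

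RNA was taken from mouse marrow progenitors that an oncogene had immortalized and that were grown in stem cell factor, a progenitor growth factor, without GM-CSF. There were 3 clones immortalized by NUP98-NSD1, a fusion of a nucleoporin with a histone methyltransferase, 1 array of cells immortalized by MLL-ENL, another leukaemia fusion, 3 clones immortalized by HoxA9 coexpressed with Meis1 (written HoxA9+Meis1) and 3 clones immortalized by HoxA9, a homeobox transcription factor. Each clone was measured on 1 Affymetrix Mouse Genome 430 2.0 array. Whether different animals gave rise to the clones is not in the labels, and a p-value therefore measures only the spread between clones, which may be technical in part. All cultures were immortalized, so no value here stands for a normal progenitor.

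Sterols and isoprenoids share the mevalonate pathway, which turns acetyl-CoA into isoprenoid units that are joined to farnesyl and geranylgeranyl groups or, through squalene, folded into the sterol ring. Fatty acids are built from the same acetyl-CoA by Acly, Acaca and Fasn and are then elongated and desaturated. The genes of both branches are known targets of the transcription factors encoded by Srebf1 and Srebf2, whose precursors are escorted from the endoplasmic reticulum by Scap and are held there by Insig1 and Insig2 when sterols are plentiful. Dividing cells need the products for new membranes and for prenylated proteins.

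The arrays fell into 2 sets by the 18 probe sets for transcripts added at hybridization, whose mean log2 signal was 14.01 to 14.13 where cells carried NUP98-NSD1 or MLL-ENL, against 13.18 to 13.42 where they carried HoxA9 with or without Meis1. Set and oncogene cannot be told apart in any comparison of NUP98-NSD1 or MLL-ENL with HoxA9+Meis1 or HoxA9, whereas MLL-ENL with NUP98-NSD1, and HoxA9+Meis1 with HoxA9, can be compared within a set. RNA integrity, read as the 3' over 5' signal of Actb, also differed, with ratios of 1.18 to 1.43 on the fusion arrays and 1.09 to 1.17 on the others. The median of all kept probe sets was shifted by -0.14 (log2) between NUP98-NSD1 and HoxA9 and by -0.13 between NUP98-NSD1 and HoxA9+Meis1, and most of the shift lay in dim probe sets (-0.35 and -0.31 among probe sets dimmer than the median probe set, -0.02 and -0.01 among brighter ones). Of the 72 member probe sets, 57 were among the brighter ones. In the brightest of 20 bins of all kept probe sets, the median for NUP98-NSD1 was 0.167 against HoxA9 and 0.083 against HoxA9+Meis1. The labelled cells were checked by markers: primary granule genes such as Mpo summed to 769500 to 1040000 in NUP98-NSD1, 850600 in MLL-ENL, 391400 to 398500 in HoxA9+Meis1 and 563100 to 597600 in HoxA9. The introduced genes were read on 2 Hoxa9 and 3 Meis1 probe sets, which did not run the same way. One Hoxa9 probe set gave 6783 to 8481 in NUP98-NSD1, 6478 in MLL-ENL, 89610 to 103500 in HoxA9+Meis1 and 27260 to 59370 in HoxA9. The other gave 31800 to 36930, 35210, 25.73 to 29.28 and 25.89 to 50.75 in the same order of groups. One Meis1 probe set gave 4214 to 6267 in NUP98-NSD1, 10160 in MLL-ENL, 557.6 to 687.3 in HoxA9+Meis1 and 16.67 to 27.94 in HoxA9. The other Meis1 probe sets overlapped between HoxA9+Meis1 and HoxA9 (566.4 to 921.4 against 697.1 to 961.2, and 540.9 to 684.2 against 652.9 to 778.1). T lymphoid genes (4 on the array) summed to 1451 to 1886 in NUP98-NSD1, 1259 in MLL-ENL, 1627 to 2457 in HoxA9+Meis1 and 2651 to 2927 in HoxA9, with Cd3g and Cd4 at or below the signal limit on all of them. In cultures of mixed maturity, fewer cells that express a gene and less RNA per cell cannot be told apart.

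To show what the promoters of these genes share, 4 are printed that belong to genes described below, chosen after their values were seen and each with a single start in RefSeq. Each is 300 bases on its gene's strand from RefSeq's GRCm38.p6 annotation. Capitals mark the NF-Y box (CCAAT, or ATTGG on the other strand) and, in Hmgcs1, the sterol regulatory element found by the letters TCACNCCAC. The places are chr13:119690101-119690400 (+) for Hmgcs1, chr5:28071162-28071461 (+) for Insig1, chr11:120824498-120824797 (-) for Fasn and chr9:77917115-77917414 (+) for Elovl5.
Hmgcs1: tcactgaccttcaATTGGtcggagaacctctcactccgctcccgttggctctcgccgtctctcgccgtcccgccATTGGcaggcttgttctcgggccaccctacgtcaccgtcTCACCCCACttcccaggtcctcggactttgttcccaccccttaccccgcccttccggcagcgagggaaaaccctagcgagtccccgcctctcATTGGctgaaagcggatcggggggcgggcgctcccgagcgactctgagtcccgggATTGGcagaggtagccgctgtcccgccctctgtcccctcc
Insig1: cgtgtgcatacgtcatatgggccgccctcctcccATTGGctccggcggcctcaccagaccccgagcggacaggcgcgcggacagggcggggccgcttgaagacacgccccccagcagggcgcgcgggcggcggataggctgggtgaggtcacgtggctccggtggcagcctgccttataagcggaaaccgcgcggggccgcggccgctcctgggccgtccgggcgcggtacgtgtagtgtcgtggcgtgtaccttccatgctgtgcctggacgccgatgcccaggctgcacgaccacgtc
Fasn: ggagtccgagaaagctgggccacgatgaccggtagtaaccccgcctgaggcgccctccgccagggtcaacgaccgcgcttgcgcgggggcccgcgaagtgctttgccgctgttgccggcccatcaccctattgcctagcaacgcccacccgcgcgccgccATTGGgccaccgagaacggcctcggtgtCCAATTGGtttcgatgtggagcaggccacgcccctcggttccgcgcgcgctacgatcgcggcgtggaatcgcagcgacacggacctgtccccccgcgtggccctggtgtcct
Elovl5: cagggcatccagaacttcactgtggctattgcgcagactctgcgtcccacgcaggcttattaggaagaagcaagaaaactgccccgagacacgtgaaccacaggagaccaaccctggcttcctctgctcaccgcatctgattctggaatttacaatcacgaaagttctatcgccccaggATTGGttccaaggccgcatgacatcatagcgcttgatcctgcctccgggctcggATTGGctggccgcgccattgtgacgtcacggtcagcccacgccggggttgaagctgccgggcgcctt
RefSeq's table held 35 promoters of 26 member genes, among them Acat2, which was not measured. It held none of Fdft1, Fdps, Sqle, Stard4, Scd1 or Scd2, so the shares that follow do not cover those genes. The letters CCAAT, on either strand, were in 65.7% of these 35 promoters (23), against 37.4% of all 32851 promoters of the same length. GGGCGG, the box read by Sp1, was in 71.4% (25), against 35.7%. The degenerate sterol regulatory element TCACNCCAC was in 2.86% (1, that of Hmgcs1, whose element begins 137 bases before the start) against 1.24%. A match is a description of letters in this window, both strands were searched, and in Fasn a pair of the CCAAT matches overlap.

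On their main probe sets, Ggps1, Fdft1, Dhcr7, Insig2, Scd2 and Elovl5 were higher in NUP98-NSD1 clones than in both HoxA9+Meis1 and HoxA9 clones, and Insig1 was lower than in both. Also by main probe sets, no enzyme from Hmgcs1 to Fdps passed against HoxA9, while Pmvk and Mvd were higher than in HoxA9+Meis1. On some of its other probe sets, Hmgcs1 was higher than in each of these groups. Its calls against HoxA9 were lost under several alternative settings, given below. Differences were tested with limma on log2(signal + 32), and p-values were adjusted by Benjamini-Hochberg over all kept probe sets. A probe set passed at an adjusted p under 0.05. Against HoxA9, 14 of the 72 member probe sets were higher and 4 lower (25%, against 29.1% of all kept probe sets). By direction, 19.4% were higher and 5.56% lower, against 12.4% and 16.7% of all. Among the brighter probe sets, 24.6% of the 57 members were higher, against 18.7% of all bright ones, and 3.51% were lower, against 19.5%. With arrays shifted to a common median, 64.4% of the calls among all probe sets were higher, against 42.7% as scaled by the authors, and the members had 15 higher and 2 lower. By main probe sets, 8 of the 31 genes were higher and 1 was lower, where 31.4% of all genes passed in either direction, 13.2% as higher and 18.2% as lower. Without HoxA9 clone 3 the 14 higher probe sets became 9. The 4 lower ones became 2 without NUP98-NSD1 clone 1, without HoxA9 clone 1 or without HoxA9 clone 2.

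Against HoxA9+Meis1, 20 of the 72 probe sets were higher and 6 lower (36.1%, against 31% of all). By direction, 27.8% were higher, against 13.8% of all, and 8.33% were lower, against 17.2%. With a common median, 61.1% of all calls were higher, against 44.7%, and the members had 20 higher and 3 lower. Among the brighter probe sets the higher share was 31.6% of 57 members, against 20.4% of all bright ones, and the lower share was 5.26%, against 20.6%. By main probe sets, 11 of the 31 genes were higher and 4 lower, where 32.7% of all genes passed in either direction, 14.2% as higher and 18.5% as lower. The median log2 difference of the 72 probe sets was 0.21 against HoxA9+Meis1 and 0.09 against HoxA9, where the medians of all probe sets were -0.13 and -0.14. The same 3 NUP98-NSD1 arrays stand in both comparisons, so that they are not independent of each other.

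**Figure D1:**
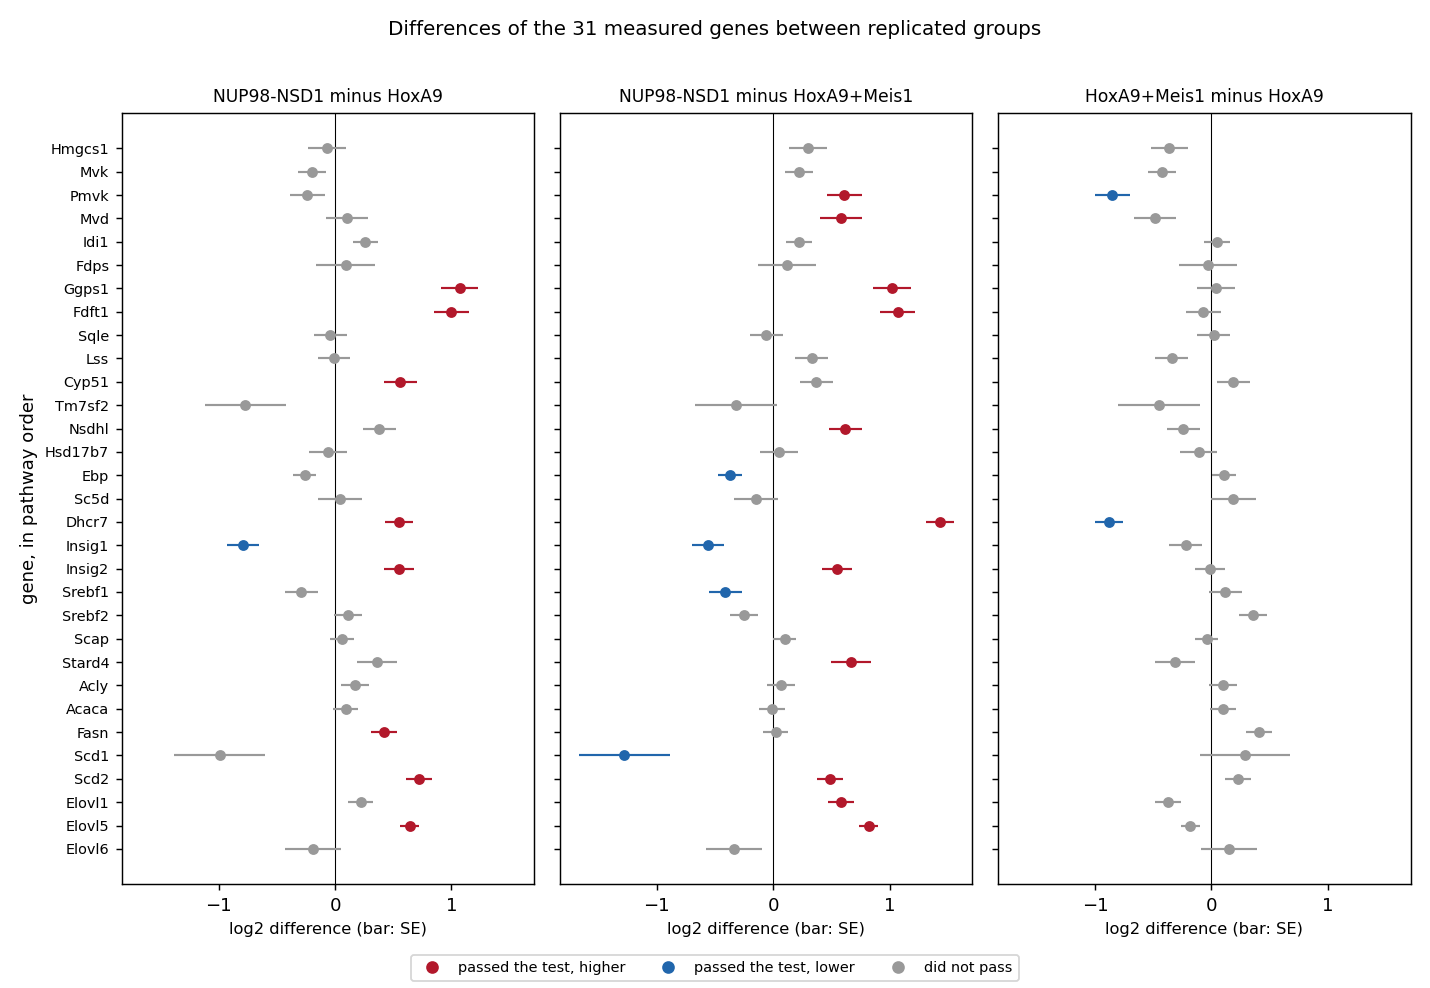
Log2 difference with its standard error (x axis) of the main probe set of each of the 31 genes (y axis, in pathway order) in the 3 comparisons of groups with 3 clones each. Of the 31, 8 passed as higher and 1 as lower for NUP98-NSD1 minus HoxA9, 11 and 4 for NUP98-NSD1 minus HoxA9+Meis1, and 0 and 2 for HoxA9+Meis1 minus HoxA9.

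In the mevalonate pathway itself, Hmgcs1, the enzyme that joins acetyl-CoA to acetoacetyl-CoA and whose promoter is printed above, gave 40610, 42028 and 37692 on its main probe set in NUP98-NSD1 clones, 35208 in MLL-ENL, 37297, 32028 and 29137 in HoxA9+Meis1 clones and 56307, 36356 and 36130 in HoxA9 clones. HoxA9 clone 1 was the highest array and the NUP98-NSD1 clones overlapped with HoxA9. This probe set did not pass (log2 difference -0.07 from HoxA9 and 0.30 from HoxA9+Meis1). Another pair of its 5 probe sets did pass against HoxA9+Meis1, by 0.71 (SE 0.12, adjusted p = 0.00163) and 0.75 (SE 0.13, adjusted p = 0.00183), with no overlap of the groups. Its dimmest probe set was at least 1.89-fold higher than in HoxA9+Meis1, where all 3 clones were under 369 (adjusted p = 0.0135). It gave 966, 776 and 506 in NUP98-NSD1 clones, 417 in MLL-ENL, 272, 263 and 273 in HoxA9+Meis1 clones and 577, 408 and 586 in HoxA9 clones, the last overlapping with NUP98-NSD1. The same pair passed against HoxA9 by 0.41 and 0.43 (adjusted p = 0.0264 and 0.0303), but neither did without NUP98-NSD1 clone 1 or 2 or without HoxA9 clone 2 or 3 (adjusted p = 0.0623 to 0.113). Both calls were also lost after quantile normalization (0.27 and 0.33, adjusted p = 0.138 and 0.0969) and without the intensity trend (adjusted p = 0.0883 and 0.0916).

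Mvk and Pmvk, which phosphorylate mevalonate, and Mvd, which makes the first isoprenoid unit from it, followed. Pmvk gave 4502, 3772 and 4352 in NUP98-NSD1 clones, 4402 in MLL-ENL, 3266, 2555 and 2460 in HoxA9+Meis1 clones and 5333, 5423 and 4205 in HoxA9 clones. All HoxA9+Meis1 clones were below every other array. The log2 difference of NUP98-NSD1 was 0.61 from HoxA9+Meis1 (SE 0.15, adjusted p = 0.0135, but 0.0509 without HoxA9+Meis1 clone 2) and -0.24 from HoxA9, which did not pass. For Mvd the main probe set was 0.58 higher than in HoxA9+Meis1 (SE 0.18, adjusted p = 0.0311), a call that was lost without any 1 of NUP98-NSD1 clones 1, 2 and 3 or HoxA9+Meis1 clones 2 and 3 (adjusted p = 0.0536 to 0.108). Mvk did not pass (-0.20 from HoxA9, 0.22 from HoxA9+Meis1).

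At the isoprenoid branch point, Idi1, the isomerase, and Fdps, which makes farnesyl diphosphate, did not pass against either group (0.26 and 0.09 from HoxA9, 0.22 and 0.12 from HoxA9+Meis1). Fdps varied most among NUP98-NSD1 clones, with 39994, 46095 and 89767. Ggps1 extends farnesyl to geranylgeranyl diphosphate, a lipid group attached to Rab proteins. It gave 4149, 4421 and 3151 in NUP98-NSD1 clones, 3235 in MLL-ENL, 1903, 1819 and 1937 in HoxA9+Meis1 clones and 1614, 1834 and 2065 in HoxA9 clones. Every NUP98-NSD1 clone and the MLL-ENL array lay above the other 6 arrays. Ggps1 was 2.10-fold higher in NUP98-NSD1 than in HoxA9 (log2 1.07, SE 0.16, adjusted p = 0.00118) and 2.03-fold higher than in HoxA9+Meis1 (log2 1.02, adjusted p = 0.00133). Its other 3 probe sets did not pass, with log2 differences down to -0.30 and -0.44, so the rise rests on 1 of 4 probe sets.

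Fdft1, squalene synthase, commits farnesyl diphosphate to sterols. On its main probe set it gave 10291, 11115 and 15110 in NUP98-NSD1 clones, 7263 in MLL-ENL, 5765, 5376 and 5946 in HoxA9+Meis1 clones and 6499, 6333 and 5177 in HoxA9 clones. The NUP98-NSD1 clones were the highest, MLL-ENL came next, and the other 6 arrays were the lowest. The rise was 2.00-fold over HoxA9 (log2 1.00, SE 0.15, adjusted p = 0.000971) and 2.10-fold over HoxA9+Meis1 (log2 1.07, SE 0.15, adjusted p = 0.000616). A second probe set gave 8870, 8972 and 12551 in NUP98-NSD1 clones, 6961 in MLL-ENL, 3849, 3030 and 4020 in HoxA9+Meis1 clones and 4050, 3854 and 3545 in HoxA9 clones, which is 2.61-fold over HoxA9 and 2.76-fold over HoxA9+Meis1 (adjusted p = 0.000228 and 0.000176). Another, much dimmer one was lower than in HoxA9 (log2 -1.16, SE 0.39, adjusted p = 0.0483), with 349, 482 and 744 in NUP98-NSD1 clones, 189 in MLL-ENL, 549, 1364 and 1400 in HoxA9+Meis1 clones and 1124, 1029 and 1344 in HoxA9 clones. It missed the threshold without any 1 of NUP98-NSD1 clones 1 and 2, HoxA9+Meis1 clones 2 and 3 and the HoxA9 clones (adjusted p = 0.0547 to 0.136). Fdft1 was the 1 gene, of 4 members with at least 2 called probe sets, whose calls were opposite against HoxA9. Among all genes that share was 21.3% (290 of 1361), while within the second set of arrays, for HoxA9+Meis1 against HoxA9, it was 0.289%.

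After squalene, Sqle (squalene epoxidase) and Lss (lanosterol synthase) did not pass (-0.04 and -0.01 from HoxA9, -0.06 and 0.33 from HoxA9+Meis1). Sqle gave 11765, 11699 and 15735 in NUP98-NSD1 clones and 12243 to 14588 in HoxA9+Meis1 and 11665 to 15363 in HoxA9 clones, so that all 3 groups overlapped. The demethylases and reductases that trim lanosterol moved unevenly. Cyp51, which removes the first methyl group, was 0.56 higher than in HoxA9 (SE 0.14, adjusted p = 0.0140, but 0.0521 without HoxA9 clone 3) and 0.37 from HoxA9+Meis1 (adjusted p = 0.0686). Nsdhl, a decarboxylating dehydrogenase of the same stage, was 0.62 higher than in HoxA9+Meis1 (SE 0.14, adjusted p = 0.00835), with 14759, 13386 and 18408 in NUP98-NSD1 against 10550, 8472 and 11099 in HoxA9+Meis1. Ebp, the isomerase of the ring's double bond, was lower than in HoxA9+Meis1 by a small amount (-0.37, SE 0.10, adjusted p = 0.0227). That call was lost without NUP98-NSD1 clone 1 or 2 or HoxA9+Meis1 clone 3 (adjusted p = 0.0663 to 0.0800) and with arrays shifted to a common median (-0.21). Tm7sf2, Hsd17b7 and Sc5d, further enzymes of this stage, did not pass by their main probe sets. A dim Sc5d probe set gave 469, 460 and 571 in NUP98-NSD1 clones, 230 in MLL-ENL, 1023, 940 and 1162 in HoxA9+Meis1 clones and 1497, 1319 and 1133 in HoxA9 clones, with no overlap of NUP98-NSD1 with either group. It was lower than in HoxA9 (-1.34, SE 0.24, adjusted p = 0.00240) and than in HoxA9+Meis1 (-1.01, adjusted p = 0.00894), while its other 2 probe sets did not pass.

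Dhcr7 carries out the last step to cholesterol and differed between all 3 replicated groups. It gave 12536, 13254 and 12218 in NUP98-NSD1 clones, 7807 in MLL-ENL, 4058, 4783 and 5227 in HoxA9+Meis1 clones and 9226, 8995 and 7711 in HoxA9 clones. No group overlapped with another of the replicated ones. NUP98-NSD1 was 2.70-fold above HoxA9+Meis1 (log2 1.43, SE 0.12, adjusted p = 4.19e-05) and 1.47-fold above HoxA9 (log2 0.55, SE 0.12, adjusted p = 0.00625). These calls held under every alternative run.

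**Figure D2:**
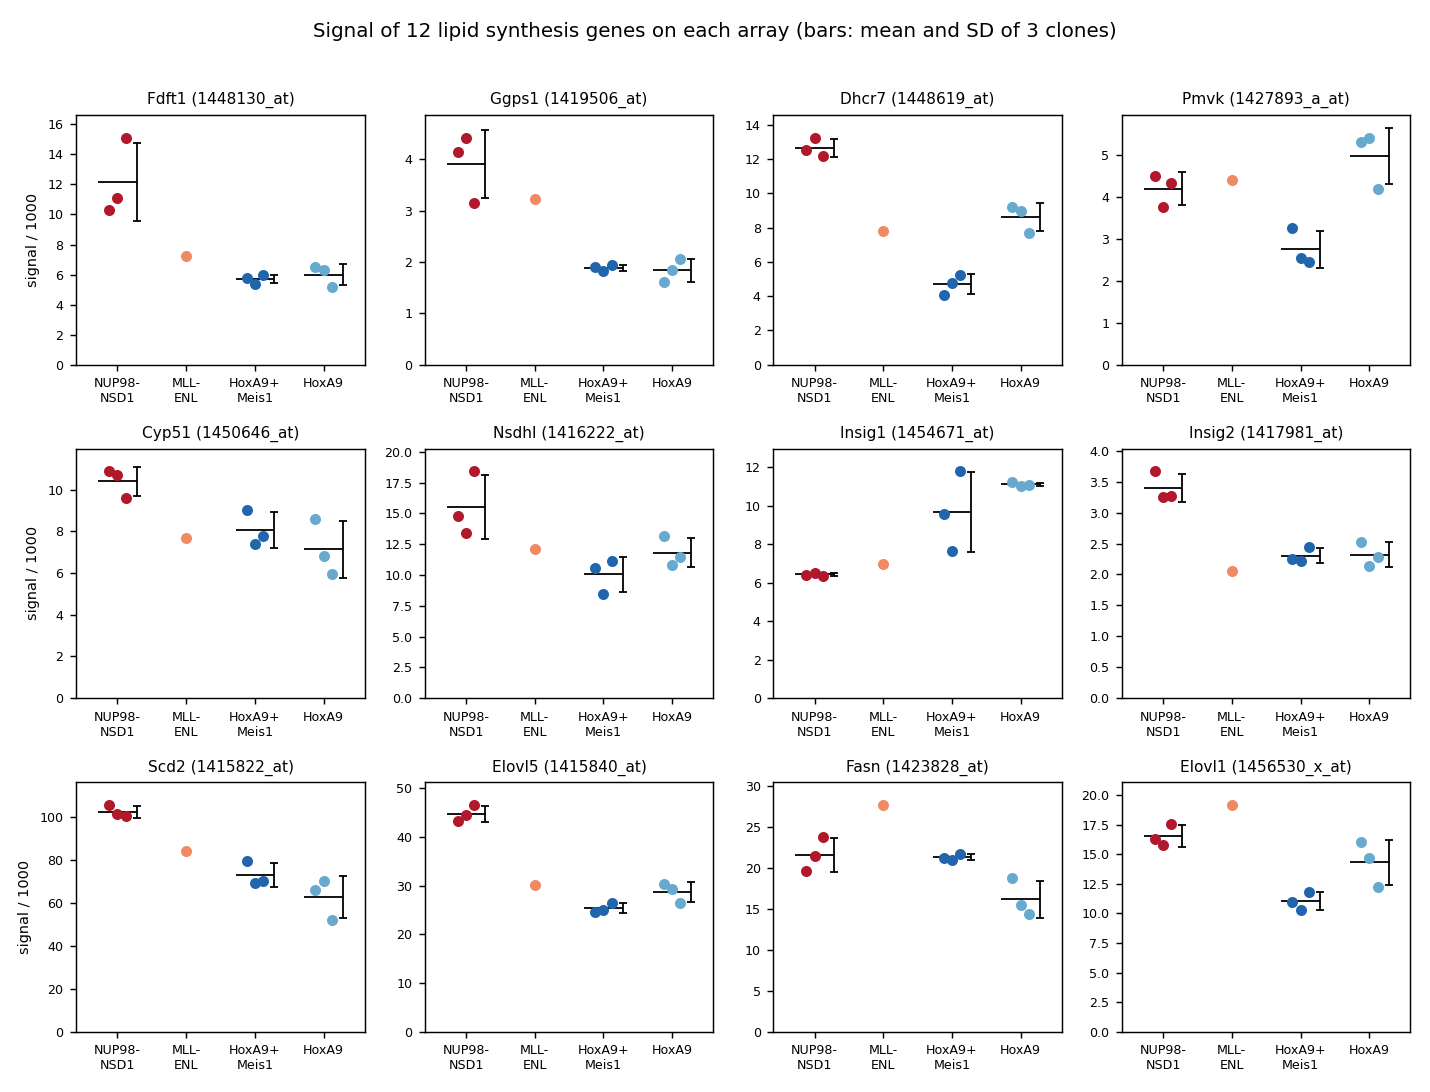
Signal divided by 1000 (y axis, from 0) of the main probe sets of 12 genes on each array (x axis, by oncogene). Points are arrays, the line and bar are the mean and SD of 3 clones, and MLL-ENL is 1 array. Ggps1 and Fdft1 are about 2-fold higher in the NUP98-NSD1 clones than in the HoxA9+Meis1 and HoxA9 clones, Insig1 is lower, and Dhcr7 and Pmvk are lowest in HoxA9+Meis1.

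Among the regulators, the paired retention proteins went opposite ways. Insig1, itself a target of the sterol-regulated factors, gave 6411, 6506 and 6357 in NUP98-NSD1 clones, 6981 in MLL-ENL, 9587, 7625 and 11781 in HoxA9+Meis1 clones and 11203, 11032 and 11079 in HoxA9 clones. Both fusion groups were below all 6 other arrays. Insig1 fell 1.72-fold against HoxA9 (log2 -0.79, SE 0.14, adjusted p = 0.00229) and 1.48-fold against HoxA9+Meis1 (log2 -0.56, SE 0.14, adjusted p = 0.0110). The second of these missed the threshold when arrays were shifted to a common median (-0.41, adjusted p = 0.148). Insig2 gave 3666, 3260 and 3268 in NUP98-NSD1 clones, 2062 in MLL-ENL, 2254, 2214 and 2437 in HoxA9+Meis1 clones and 2532, 2139 and 2289 in HoxA9 clones. NUP98-NSD1 stood above all the other arrays, MLL-ENL included. The rise of Insig2 was 0.55 against each group (SE 0.13, adjusted p = 0.0106 against HoxA9+Meis1 and 0.0123 against HoxA9, or 0.0534 without HoxA9 clone 2). A second Insig2 probe set rose by 0.79 and 0.78 (adjusted p = 0.0162 and 0.0185), calls that were lost without NUP98-NSD1 clone 2 (0.0549 and 0.0632) and, against HoxA9, without HoxA9 clone 1 (0.0675). The remaining Insig2 probe set did not pass.

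Srebf1 and Srebf2, the transcription factors, and Scap, their escort, differed little. Srebf2 gave 9012, 8622 and 10337 in NUP98-NSD1 clones, 8252 in MLL-ENL, 11697, 10273 and 11273 in HoxA9+Meis1 clones and 9151, 9274 and 7489 in HoxA9 clones, and neither NUP98-NSD1 comparison passed (log2 0.11 from HoxA9, -0.25 from HoxA9+Meis1). Scap gave 9380, 10025 and 11303 in NUP98-NSD1 clones, 9022 in MLL-ENL, 9771, 9929 and 8826 in HoxA9+Meis1 clones and 9699, 9467 and 10230 in HoxA9 clones. All its groups overlapped, with differences of 0.06 and 0.10 (SE 0.10). Srebf1 gave 10491, 8988 and 8001 in NUP98-NSD1 clones, 10185 in MLL-ENL, 13836, 11818 and 10887 in HoxA9+Meis1 clones and 10464, 13166 and 10100 in HoxA9 clones. It passed as lower than in HoxA9+Meis1 (-0.41, SE 0.14, adjusted p = 0.0474), and this call was lost under several alternatives, among them leaving out NUP98-NSD1 clone 2 or 3, HoxA9+Meis1 clone 1 or 2, or HoxA9 clone 1 or 3 (adjusted p = 0.0527 to 0.165). Stard4, a carrier of cholesterol between membranes, was 0.67 higher than in HoxA9+Meis1 on its main probe set (SE 0.17, adjusted p = 0.0146, but 0.0586 and 0.0596 without HoxA9+Meis1 clone 1 and clone 2). A second Stard4 probe set was 0.56 higher (SE 0.12, adjusted p = 0.00559) under every alternative. It was also 0.41 higher than in HoxA9 (adjusted p = 0.0253). That call was lost without the intensity trend, NUP98-NSD1 clone 1 or any HoxA9 clone (adjusted p = 0.054 to 0.0792).

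Fatty acid synthesis starts with Acly, which makes cytosolic acetyl-CoA, and Acaca, which makes malonyl-CoA. Their main probe sets did not pass (0.17 and 0.09 from HoxA9, 0.07 and -0.01 from HoxA9+Meis1), although a dimmer Acaca probe set was lower than in HoxA9+Meis1 (-1.21, SE 0.24, adjusted p = 0.00396). It gave 905, 693 and 945 in NUP98-NSD1 clones, 512 in MLL-ENL, 1699, 2585 and 1769 in HoxA9+Meis1 clones and 1548, 1195 and 1124 in HoxA9 clones. Fasn, the synthase that makes palmitate, gave 19662, 21428 and 23825 in NUP98-NSD1 clones, 27707 in MLL-ENL, 21231, 21026 and 21733 in HoxA9+Meis1 clones and 18732, 15471 and 14364 in HoxA9 clones. HoxA9 clones were below all other arrays. NUP98-NSD1 was 0.42 above HoxA9 (SE 0.11, adjusted p = 0.0155, but 0.0563 and 0.0590 without HoxA9 clone 2 and clone 3) and 0.02 from HoxA9+Meis1.

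Scd1 and Scd2 encode desaturases that put the first double bond into stearate. Scd2 gave 105454, 101204 and 100247 in NUP98-NSD1 clones, 84080 in MLL-ENL, 79499, 69321 and 70150 in HoxA9+Meis1 clones and 65897, 70323 and 51845 in HoxA9 clones. The NUP98-NSD1 clones were the highest 3 arrays. Scd2 was 1.64-fold above HoxA9 (log2 0.72, SE 0.11, adjusted p = 0.000983) and 1.40-fold above HoxA9+Meis1 (log2 0.49, SE 0.11, adjusted p = 0.00675), the second being 0.26 after quantile normalization (adjusted p = 0.106). Over the alternatives run, the Scd2 difference from HoxA9 ranged from 0.38 to 0.91, with an adjusted p of at most 0.0291. Of its other 2 probe sets, 1 passed against HoxA9 (0.58, adjusted p = 0.00756) and 1 did not (0.52, adjusted p = 0.0545). Neither passed against HoxA9+Meis1 (0.15 and 0.23), so that call rests on 1 of 3 probe sets. Scd1 was dim, with 412, 769 and 224 in NUP98-NSD1 clones, 455 in MLL-ENL, 992, 1079 and 1119 in HoxA9+Meis1 clones and 674, 867 and 1096 in HoxA9 clones. It passed as lower than in HoxA9+Meis1 (-1.28, SE 0.39, adjusted p = 0.0297) but not without any 1 of NUP98-NSD1 clones 1 and 3 and the 3 HoxA9+Meis1 clones (adjusted p = 0.0583 to 0.0792). Its NUP98-NSD1 clones overlapped with HoxA9.

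The elongases add carbon pairs to fatty acids. Elovl5, which acts on polyunsaturated chains, gave 43367, 44427 and 46588 in NUP98-NSD1 clones, 30060 in MLL-ENL, 24504, 25062 and 26547 in HoxA9+Meis1 clones and 30376, 29324 and 26505 in HoxA9 clones. On this main probe set the NUP98-NSD1 clones were above every other array. Elovl5 was 1.56-fold above HoxA9 (log2 0.64, SE 0.08, adjusted p = 0.000280) and 1.76-fold above HoxA9+Meis1 (log2 0.82, SE 0.08, adjusted p = 7.92e-05), under every alternative run. Its other probe set gave 35003, 36194 and 42047 in NUP98-NSD1 clones, 24587 in MLL-ENL, 27032, 26062 and 28054 in HoxA9+Meis1 clones and 33556, 29973 and 32334 in HoxA9 clones. It passed against HoxA9+Meis1 (log2 0.48, SE 0.09, adjusted p = 0.00263) and not against HoxA9 (log2 0.24, adjusted p = 0.0630), so the call against HoxA9 rests on 1 of 2 probe sets. Elovl1, which acts on saturated very long chains, was 0.58 above HoxA9+Meis1 on its main probe set (SE 0.11, adjusted p = 0.00296) with 16259, 15797 and 17562 in NUP98-NSD1 against 10969, 10309 and 11814 in HoxA9+Meis1. Of its other 3 probe sets, 2 were also higher than in HoxA9+Meis1 (0.60, adjusted p = 0.00934, and 1.22, adjusted p = 0.0117). The dimmest gave the larger value, with 1211, 698 and 832 in NUP98-NSD1 clones, 611 in MLL-ENL, 324, 435 and 343 in HoxA9+Meis1 clones and 539, 714 and 600 in HoxA9 clones. Against HoxA9 the main probe set gave 0.22 and did not pass, and the remaining Elovl1 probe set was lower (-0.43, SE 0.11, adjusted p = 0.0177), a call lost without NUP98-NSD1 clone 1 or 2 or HoxA9 clone 1 or 2 (adjusted p = 0.0532 to 0.0596). Elovl6, which elongates palmitate, did not pass (-0.19 and -0.34).

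**Figure D3:**
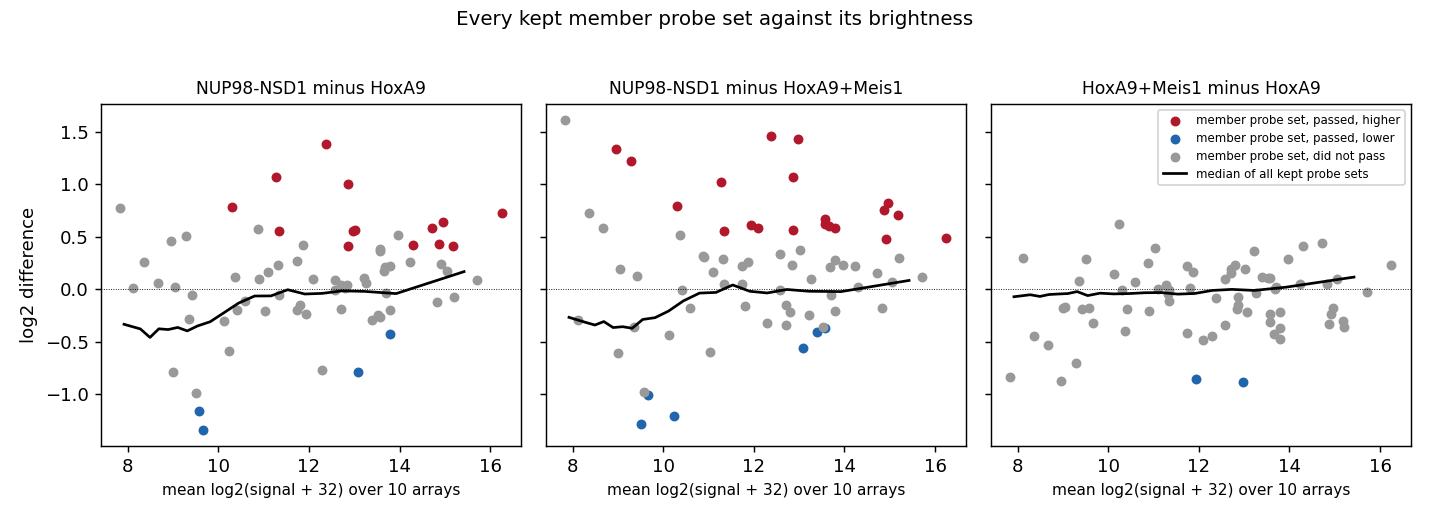
Log2 difference (y axis) of the 72 kept member probe sets against their mean log2(signal + 32) over the 10 arrays (x axis), in 3 comparisons. The black line is the median of all kept probe sets in 20 bins of brightness. For NUP98-NSD1 the line runs below 0 among dim probe sets and near 0 over most of the range where the 57 brighter members lie. In the brightest bin it lies at 0.167 against HoxA9 and at 0.083 against HoxA9+Meis1. In the NUP98-NSD1 comparisons the lowest members are dim, and against HoxA9+Meis1 so are some of the highest. For HoxA9+Meis1 minus HoxA9, the brighter probe sets of Dhcr7 (-0.88) and Pmvk (-0.85) are among the lowest.

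Within a set of arrays, clones immortalized by HoxA9+Meis1 were compared with separate clones immortalized by HoxA9. Signal on a Hoxa9 probe set also differed between them (89610 to 103500 against 27260 to 59370), while another overlapped. The part of that difference in the values below was not tested. HoxA9+Meis1 clones had 2 of the 72 member probe sets lower than HoxA9 clones and 0 higher (2.78%, against 6.88% of all kept probe sets, 3.39% higher and 3.49% lower), and those were the single probe sets of Dhcr7 and Pmvk. By genes these are 2 of 31 (6.45%), where 8.66% of all genes passed, 4.18% as higher and 4.48% as lower. At an unadjusted p under 0.05 by the same limma fit, 20 member probe sets were counted (27.8%, against 19.1% of all kept probe sets), 5 of them higher (6.94%, against 9.27%) and 15 lower (20.8%, against 9.86%). Dhcr7 was 1.84-fold lower (log2 -0.88, SE 0.12, adjusted p = 0.00154) and Pmvk 1.80-fold lower (log2 -0.85, SE 0.15, adjusted p = 0.00836), with the clone values given above and no overlap. Both calls held under every alternative run. By main probe sets, Fasn (0.41, adjusted p = 0.0504), Mvk (-0.42, adjusted p = 0.0634), Elovl1 (-0.37, adjusted p = 0.0742) and Srebf2 (0.36, adjusted p = 0.0963) came next and did not pass. Their clones did not overlap between the groups. Such separation was found for 9.68% of member genes as higher and 16.1% as lower, against 14.6% and 16.6% of all genes. Fasn passed in some alternatives, for example without HoxA9 clone 1 (0.52, adjusted p = 0.0162) and without NUP98-NSD1 clone 3 (0.41, adjusted p = 0.0319), and Mvk without NUP98-NSD1 clone 3 (adjusted p = 0.0448). The lower count of 2 became 4 without HoxA9 clone 3, and the higher count became 1 without NUP98-NSD1 clone 3, HoxA9 clone 1 or HoxA9 clone 2. Over the 72 probe sets the median difference was -0.06, and -0.02 over all.

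The single MLL-ENL array has no replicate, and its tests assume that it varies like the clones of the other groups. Against NUP98-NSD1, in the same set of arrays, 4 member probe sets were lower and 0 higher (5.56%, against 3.98% of all, 1.18% higher and 2.79% lower). At an unadjusted p under 0.05 by limma, 16 were lower (22.2%, against 12.1% of all) and 1 higher (1.39%, against 6.62%). The 4 that were lower after adjustment included both probe sets of Elovl5 (log2 -0.57, SE 0.11, and -0.61, SE 0.12). The others were the probe set of Dhcr7 (-0.70, SE 0.17) and a dimmer one of Hsd17b7 (-1.50, SE 0.33). That Hsd17b7 probe set gave 481 in MLL-ENL, against 1126, 1251 and 2025 in NUP98-NSD1 clones. None of the 4 passed without the trend of variance with intensity, or after arrays were shifted to a common median, where the Elovl5 values were -0.28 and -0.32, that of Dhcr7 -0.41 and that of Hsd17b7 -1.21. The Dhcr7 call was also lost without NUP98-NSD1 clone 1 or 2, HoxA9+Meis1 clone 2 or HoxA9 clone 1 or 2 (adjusted p = 0.0519 to 0.104), and the Hsd17b7 call without NUP98-NSD1 clone 2, without any HoxA9+Meis1 clone or without HoxA9 clone 2 or 3 (0.0521 to 0.0593). The count of 4 became 2 without HoxA9+Meis1 clone 2 and without HoxA9 clone 2, and 2 probe sets passed as higher without NUP98-NSD1 clone 3. By main probe sets, MLL-ENL lay below all 3 NUP98-NSD1 clones in 15 of the 31 genes (48.4%, against 31.4% of all genes) and above them in 5 (16.1%, against 27.3%).

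MLL-ENL was set against the other groups as well. Against HoxA9, 3 member probe sets were higher and 6 lower (12.5%, against 14.6% of all, 5.08% higher and 9.49% lower), and against HoxA9+Meis1 7 were higher and 5 lower (16.7%, against 20.1%, 7.7% higher and 12.4% lower). With a common median of arrays these counts became 8 and 1, and 11 and 2, while the share of all calls that were higher was 74.5% against 34.8% as scaled, and 72% against 38.4%. Fasn, with 27707 the highest signal of any array for that probe set, was 1.72-fold above HoxA9 (log2 0.78, SE 0.15, adjusted p = 0.00869). Elovl1 was 1.74-fold above HoxA9+Meis1 on its main probe set (log2 0.80, SE 0.15, adjusted p = 0.00613), and Dhcr7 was 1.67-fold above it (log2 0.74, SE 0.17, adjusted p = 0.0121). Ggps1 was 0.81 above HoxA9 (SE 0.23) and 0.77 above HoxA9+Meis1 on its main probe set. Its other probe sets ran the other way, down to -0.82 and -0.9. The call against HoxA9 was lost without any 1 of the HoxA9+Meis1 clones or of the HoxA9 clones. The call against HoxA9+Meis1 was lost without any HoxA9+Meis1 clone or without HoxA9 clone 2. Insig1 was lower than in HoxA9 (log2 -0.67, SE 0.19, adjusted p = 0.0434), a call lost with a common median of arrays (-0.19) and without NUP98-NSD1 clone 1 or 2, HoxA9+Meis1 clone 1 or any HoxA9 clone (0.0533 to 0.0847). A dim Sc5d probe set was at least 3.34-fold lower than in HoxA9 and at least 2.67-fold lower than in HoxA9+Meis1. Its MLL-ENL signal was under the limit of 369. Other Sc5d probe sets had log2 differences up to 0.65 from HoxA9 and 0.4 from HoxA9+Meis1. The 3 higher probe sets against HoxA9 became 1 without HoxA9 clone 2 or clone 3, and the 6 lower ones 3 without HoxA9 clone 1 or clone 2. The 7 higher ones against HoxA9+Meis1 became 4 without HoxA9+Meis1 clone 2.

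The clones of a group differed little in most of these genes, most of which are bright. The ratio of the highest to the lowest clone had a median over the 31 main probe sets of 1.21 in NUP98-NSD1 (1.44 over all genes), 1.17 in HoxA9+Meis1 (1.29) and 1.26 in HoxA9 (1.29). Ratios over 1.5 were found in 4, 4 and 3 genes. Scd1 and Fdps varied most in NUP98-NSD1 (3.44 and 2.24), and in HoxA9+Meis1 these were Tm7sf2 (3.11), whose clones gave 6112, 2542 and 7917, and Elovl6 (1.99). Without HoxA9+Meis1 clone 2, the low one for Tm7sf2, that gene passed as lower in NUP98-NSD1 than in HoxA9 (-0.77, adjusted p = 0.0226) and than in HoxA9+Meis1 (-0.80, adjusted p = 0.0350). Against HoxA9, Tm7sf2 also passed when limma was fitted to the compared groups alone (-0.77, adjusted p = 0.028).

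Genes next to the members were read from 5 lists chosen for the pathway. Of 23 measured genes of fatty acid supply, desaturation and elongation, 7 were higher and 4 lower in NUP98-NSD1 than in HoxA9 (median 0.21), 6 higher and 6 lower than in HoxA9+Meis1 (median -0.14), and 5 higher and 1 lower in HoxA9+Meis1 than in HoxA9 (median 0.08). Of all genes, 31.4%, 32.7% and 8.66% passed in these comparisons. The desaturase gene Fads2, which acts on polyunsaturated chains together with Elovl5, gave 6319, 6900 and 6428 in NUP98-NSD1 clones, 2199 in MLL-ENL, 12776, 11732 and 9608 in HoxA9+Meis1 clones and 1477, 1261 and 1370 in HoxA9 clones. The 3 replicated groups did not overlap. Its log2 difference was 2.23 for NUP98-NSD1 minus HoxA9 (SE 0.13, adjusted p = 9.79e-06), -0.78 for NUP98-NSD1 minus HoxA9+Meis1 (SE 0.13, adjusted p = 0.00166) and 3.02 for HoxA9+Meis1 minus HoxA9 (SE 0.13, adjusted p = 1.17e-06). That last difference, within a set of arrays, was larger than that of any member gene by its main probe set, where the range was -0.88 to 0.41.

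Acss2, which makes cytosolic acetyl-CoA from acetate and so supplies both branches, gave 6830, 6247 and 7568 in NUP98-NSD1 clones, 2008 in MLL-ENL, 900, 1360 and 901 in HoxA9+Meis1 clones and 1560, 1728 and 1222 in HoxA9 clones. The NUP98-NSD1 clones stood alone, over 3 times the next array. The log2 difference was 2.18 from HoxA9 (SE 0.20, adjusted p = 7.03e-05) and 2.69 from HoxA9+Meis1 (SE 0.20, adjusted p = 2.86e-05), and MLL-ENL was lower than NUP98-NSD1 within the set (-1.76, SE 0.28, adjusted p = 0.00976). Its mitochondrial counterpart Acss1 did not follow it: HoxA9+Meis1 clones gave 4405 to 5399, against 1471 to 1751 in HoxA9 clones (log2 1.60, SE 0.19, adjusted p = 0.000833), and NUP98-NSD1 was lower than HoxA9+Meis1 (log2 -1.35, SE 0.19, adjusted p = 0.000715). Hsd17b12, a reductase of the elongation cycle, was lower in NUP98-NSD1 than in HoxA9+Meis1 (-0.87, adjusted p = 0.000230), as was the elongase gene Elovl7 (-1.90, adjusted p = 0.00937).

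The remaining lists covered the sterol branches, sterol transport and efflux, and fatty acid oxidation, and their counts stand beside 13.2% of all genes higher and 18.2% lower against HoxA9, and 14.2% higher and 18.5% lower against HoxA9+Meis1. Of 13 measured genes of the sterol and isoprenoid branches outside the members, 1 was higher and 2 lower in NUP98-NSD1 than in HoxA9, 1 higher and 0 lower than in HoxA9+Meis1, and 0 passed between HoxA9+Meis1 and HoxA9. The 1 higher than in HoxA9+Meis1 was Msmo1, the sterol methyl oxidase between Cyp51 and Nsdhl (0.63, adjusted p = 0.00644). Rabggta, a subunit of the enzyme that attaches the product of Ggps1 to Rab proteins, was lower in NUP98-NSD1 than in HoxA9 (-0.83, adjusted p = 0.00463). Among 14 genes of SREBP processing and sterol transport, 4 were higher and 1 lower than in HoxA9, and 3 higher and 1 lower than in HoxA9+Meis1, where 31.4% and 32.7% of all genes passed in either direction. Nceh1, a hydrolase of cholesteryl esters, rose most (1.72, SE 0.26, adjusted p = 0.00106, and 1.62, adjusted p = 0.00136), and Npc1, which exports cholesterol from lysosomes, was 1.07 above HoxA9+Meis1 (adjusted p = 0.00284). Of 8 measured genes of LXR and sterol efflux, 1 was higher and 2 lower than in HoxA9, and 0 higher and 1 lower than in HoxA9+Meis1. Of 18 fatty acid oxidation genes, 2 were higher and 8 lower in NUP98-NSD1 than in HoxA9 (median -0.22, against -0.14 over all genes), and 3 higher and 4 lower than in HoxA9+Meis1 (median -0.16, against -0.13). Against HoxA9, Ppard, a lipid-sensing nuclear receptor, was higher (1.63, adjusted p = 0.00384), and Cpt2, of the carnitine shuttle, was lower (-0.74, adjusted p = 0.00309, but -0.55 and 0.0897 with a common median of arrays).

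**Figure D4:**
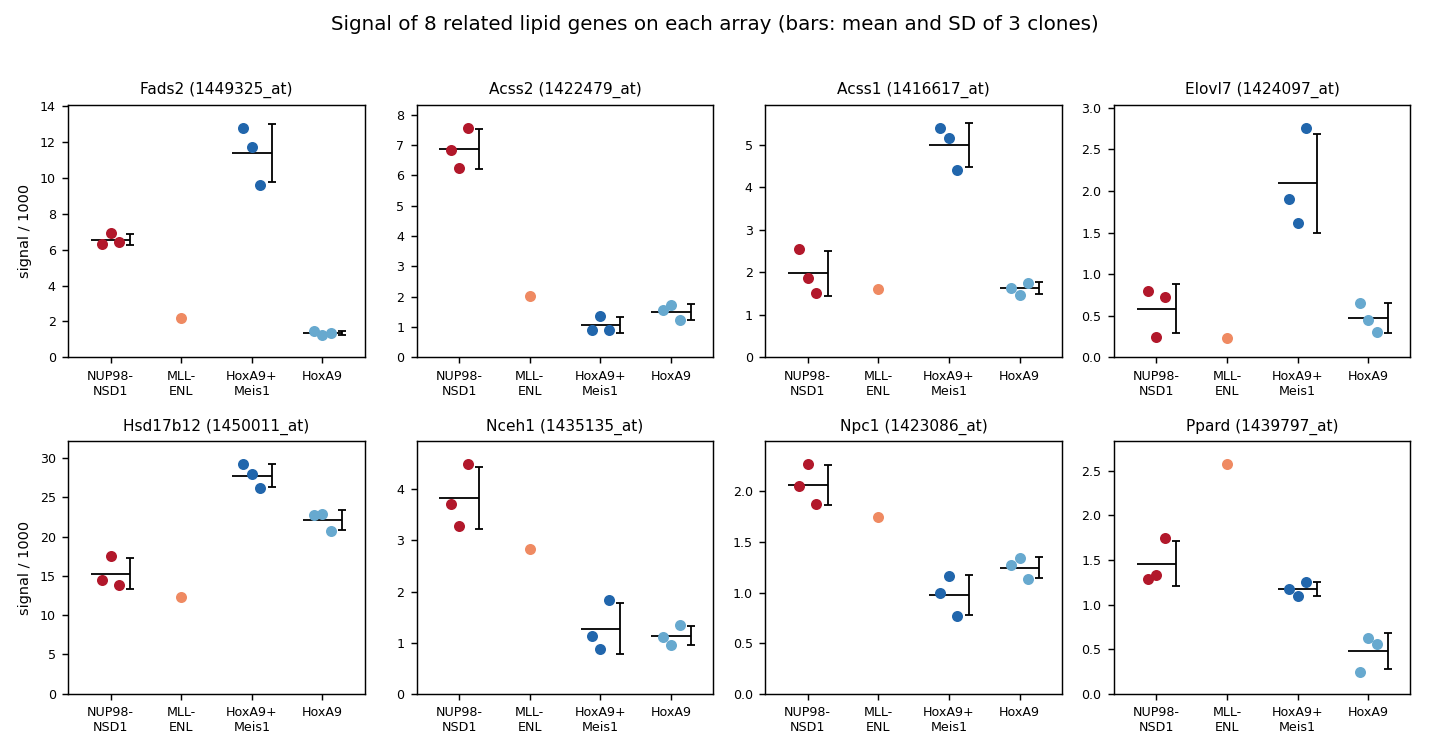
Signal divided by 1000 (y axis, from 0) of 8 genes next to the pathway on each array (x axis, by oncogene). Points are arrays, and the line and bar are the mean and SD of 3 clones. Fads2 is highest in HoxA9+Meis1 and intermediate in NUP98-NSD1, and Acss2 stands high in the NUP98-NSD1 clones alone.

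Marker sums of maturing and other cells separated the groups in some lists and overlapped in others. Secondary granule and calprotectin genes of neutrophils (10 on the array) summed to 482000 to 1116000 in NUP98-NSD1 clones, 21400 in MLL-ENL, 12380 to 97430 in HoxA9+Meis1 clones and 15910 to 79120 in HoxA9 clones. Mast cell and basophil genes (9 on the array) summed to 61490 to 256000 in NUP98-NSD1, 4693 in MLL-ENL, 16510 to 26930 in HoxA9+Meis1 and 7420 to 12280 in HoxA9. Monocyte and macrophage genes (9 on the array, C1qa at or below the signal limit throughout) summed to 48240 to 55660, 86830, 43090 to 84460 and 21570 to 33480 in the same order of groups. Megakaryocyte genes (3 on the array) summed to 4155 to 17330 in NUP98-NSD1, 2465 in MLL-ENL, 3688 to 3860 in HoxA9+Meis1 and 3551 to 4105 in HoxA9. Stromal genes (6) summed to 1610 to 2224, 2034, 3234 to 4101 and 3550 to 3801 in that order, B lymphoid genes (7) to 2607 to 4188, 2599, 3150 to 14260 and 2600 to 3919, and erythroid genes (4) to 1932 to 3760, 1971, 2592 to 3191 and 2512 to 3535. The part of these cells in the differences above was not tested. Cell cycle genes (13 on the array) differed less, with 492800 to 553000 in NUP98-NSD1, 518400 in MLL-ENL, 512600 to 527600 in HoxA9+Meis1 and 455900 to 458300 in HoxA9.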

How the data were processed

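Signals of RNA from 10 arrays were read as the deposited linear intensity values of the authors, which had been scaled so that the mean after trimming 2% at each end was 2500.01 or 2500.02 on every array. The software behind them is not given in the sources used here. Probe sets were named from the platform annotation when it gave 1 symbol (34958 of 45101, with 932 naming several and 9211 none). Probe sets above a signal of 369 in at least 3 arrays were kept (30989). On log2(signal + 32) of the deposited intensities, 4 group means were fitted with limma 3.58.1 in R 4.3.3 (eBayes with an intensity trend, 6 residual degrees of freedom), with Benjamini-Hochberg adjustment and a two-sided threshold of 0.05. The fit was tested on simulated data. Depth does not apply to arrays, so their number limits the precision. Floors for "at least" folds used the signal limit of 369. Members and lists were chosen with earlier results of these data known. Values were given per array for Srebf1, Srebf2, Scap, Insig1, Insig2, Fasn, Scd2 and member probe sets called with a log2 difference of at least 1 in a comparison of replicated groups, and those of other members were chosen after their values were seen. Alternatives changed the normalization, offset, filter, trend, arrays used and probe set choice.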

Additional observations from a re-analysis of the deposited data

How the results depend on the processing

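No called member difference reversed under any alternative run, and of 71 called differences 58 were kept after quantile normalization, 54 with a common median of arrays, 50 without the intensity trend and 56 to 68 when 1 clone was left out. Counts that moved are given as higher or lower member probe sets. NUP98-NSD1 minus HoxA9 had 14 higher and 4 lower, against 8 and 1 with 1 probe set per gene, 2 lower with a common median, and 9 to 17 higher and 2 to 6 lower without 1 clone. NUP98-NSD1 minus HoxA9+Meis1 had 20 and 6, against 11 higher with 1 probe set per gene, 11 higher without suffixed probe sets and 3 lower with a common median. HoxA9+Meis1 minus HoxA9 had 0 and 2, against 1 and 4 after quantile normalization and with a 60th percentile filter, 1 higher with an offset of 100 or 1 probe set per gene, 1 lower without suffixed probe sets, and 0 to 1 higher and 2 to 4 lower without 1 clone. MLL-ENL minus NUP98-NSD1 had 0 and 4, against 0 lower with a common median or no trend, 2 lower with 1 probe set per gene, and 0 to 2 higher and 2 to 6 lower without 1 clone. MLL-ENL minus HoxA9 had 3 and 6, against 8 and 1 with a common median, 1 higher without the trend, 1 lower with 1 probe set per gene, and 1 to 3 higher and 3 to 9 lower without 1 clone. MLL-ENL minus HoxA9+Meis1 had 7 and 5, against 11 and 2 with a common median, 3 higher without the trend or without suffixed probe sets, 4 higher and 0 lower with 1 probe set per gene, 2 lower after quantile normalization, and 4 to 8 higher without 1 clone. The share of all MLL-ENL minus NUP98-NSD1 calls that were higher was 40.3% with a common median, against 29.7%. Fewer features or samples were tested with 1 probe set per gene, without suffixed probe sets and without a clone, and for the other settings the cause was not tested. With clone number as a replicate block the counts were 16 and 4, 21 and 8, and 0 and 3 in the replicated comparisons. Deviations of same-numbered clones from their group means correlated at -0.06 to 0.04 between groups. With 3 clones per group, these values show no sign of pairing by number but cannot exclude it.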
